A study of Mus musculus with 8 samples.

Results

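Genes of iron and cobalamin (a B vitamin) handling were followed along the crypt axis of the mouse intestine. The 10 genes were taken by name, and every probe set that the platform annotation gives to exactly 1 of them was used, with the array's own control probe sets left out. This gave 23 probe sets for 10 genes, of 45037 probe sets and 18193 genes in all. Levels are RMA values on a log2 scale, so a difference of 1 is a 2-fold change in signal. Each gene is led here by its brightest probe set over the 6 EphB2 arrays, and levels of different probe sets are not set against each other.

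Crypt cells of C57BL/6 mice were freed from the intestine and sorted by flow cytometry on surface EphB2, into high, medium and low cells with 2 arrays per group. Cells were also sorted on green fluorescence from the Lgr5-EGFP knock-in allele, into high and low cells with 1 array per group. EphB2 is a receptor that is most abundant on cells at the base of the crypt and declines towards the villus, and Lgr5 marks the stem cells at the base. The labels name no treatment and no age of the animals, and state the Lgr5-EGFP allele for the Lgr5 sort alone. Nothing in the labels ties the arrays of a group to different animals, and the p-values therefore rest on a spread that may be technical only. In sorted bulk cells, fewer cells of a type and less RNA per cell cannot be told apart.

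Dividing cells take up iron bound to transferrin through the transferrin receptor, because ribonucleotide reductase, DNA polymerases and several helicases carry iron or iron-sulfur clusters. Absorptive cells of the proximal small intestine take iron from food instead. There a surface reductase yields ferrous iron, a divalent metal transporter carries it in, ferritin holds it, and ferroportin passes it to the blood side, where a copper ferroxidase oxidises it for transferrin. Dietary cobalamin arrives bound to intrinsic factor, is taken up by the cubilin and amnionless receptor pair of the distal small intestine, and leaves the cell bound to transcobalamin. The labels do not say which stretch of the intestine was used.

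RefSeq promoter entries on GRCm38.p6 were found for 5 of the 10 genes. The 250 bases before the start site are shown for Cubn and Amn, because the products of these genes form 1 receptor and both were lower in EphB2 high than in EphB2 low cells, and for the upstream one of the Tfrc start sites, because Tfrc had no such decline. Capitals mark matches to the short motifs searched.
Cubn, chr2:13491877-13492126, minus strand: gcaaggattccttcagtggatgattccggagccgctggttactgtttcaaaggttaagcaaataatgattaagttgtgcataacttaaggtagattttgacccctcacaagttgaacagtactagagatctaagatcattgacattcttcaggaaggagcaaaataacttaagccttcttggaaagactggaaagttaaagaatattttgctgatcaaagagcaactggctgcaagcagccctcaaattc
Amn, chr12:111270846-111271095, plus strand: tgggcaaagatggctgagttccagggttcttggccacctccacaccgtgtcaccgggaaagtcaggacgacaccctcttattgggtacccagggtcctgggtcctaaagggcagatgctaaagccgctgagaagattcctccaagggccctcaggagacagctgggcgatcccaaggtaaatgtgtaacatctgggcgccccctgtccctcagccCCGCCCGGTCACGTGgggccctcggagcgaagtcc
Tfrc, chr16:32608646-32608895, plus strand: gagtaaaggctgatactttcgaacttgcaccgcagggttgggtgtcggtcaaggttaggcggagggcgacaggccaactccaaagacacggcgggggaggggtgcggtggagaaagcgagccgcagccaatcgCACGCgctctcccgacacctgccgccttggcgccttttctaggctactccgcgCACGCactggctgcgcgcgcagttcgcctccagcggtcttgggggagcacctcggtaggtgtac
The Cubn stretch was 39.6% G and C and held none of the motifs, while the Amn stretch was 61.2% and the Tfrc stretch 64.8%, against a median of 52.4% over 32851 promoter entries. In the Amn stretch the last capitals hold the E-box CACGTG, found on either strand in 6.02% of all entries, which includes the hypoxia core ACGTG (16.6%). The E-box overlaps an antioxidant core TGACNNNGC read on the other strand (10.2%), and that core overlaps a GC box GGGCGG, also on the other strand (32.7%). The Tfrc stretch held the hypoxia core GCGTG on the other strand, a motif present in 28.2% of entries. The CDX motif CATAAA, present in 10.8% of entries, was in none of the 7 entries of these genes, and the loop CAGTGN of iron-responsive elements, present in the first 50 transcribed bases of 7.08% of entries, was in none of them either. The search for this loop covered those 50 bases alone, so it cannot show whether a transcript holds the loop further on. The 5 genes without an entry were not searched. The motif results are matches of letters and say nothing about binding.

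The sorts were checked on Lgr5, which stood at 9.48 and 9.64 in EphB2 high cells, 7.70 and 8.01 in medium cells, and 5.66 and 4.96 in low cells. Its difference between EphB2 high and low was 4.25 ± 0.26 (log2, mean and limma standard error, 2 arrays a group, limma adjusted p = 0.000595), and that between the Lgr5 high and low arrays was 4.39. All 9 epithelial markers lay above the median of all probe sets, with array medians between 13.51 and 13.67, and 1 rose and 1 fell between EphB2 low and high. Array medians over all probe sets ran from 6.12 to 6.20, and replicate arrays correlated at 0.992 to 0.994. EphB2 itself had no probe set naming 1 gene and was not analysed here.

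Between EphB2 high and EphB2 low cells, 17 of the 23 probe sets differed at a limma adjusted p below 0.05, of which 2 were higher and 15 lower in high cells. Over all probe sets 27.4% were called, 15.4% as higher and 11.9% as lower. The median difference of the 23 was -1.26 on the log2 scale, against -0.01 over all probe sets. By leading probe sets, 6 genes were lower (Slc11a2, Slc40a1, Heph, Cubn, Amn and Tcn2), Cybrd1 was higher, and Tfrc, Fth1 and Hmox1 were not called, against 32.8% of all genes called. The arrays of the compared groups did not overlap for 4 higher and 17 lower probe sets of the 23, where 62.9% of all probe sets did not overlap (32.2% higher, 30.7% lower). With the hybridization that arrays of 1 number share as a block, 17 were again called (31.9% of all), and leaving out 1 array at a time gave between 12 and 18 calls.

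**Figure D1:**
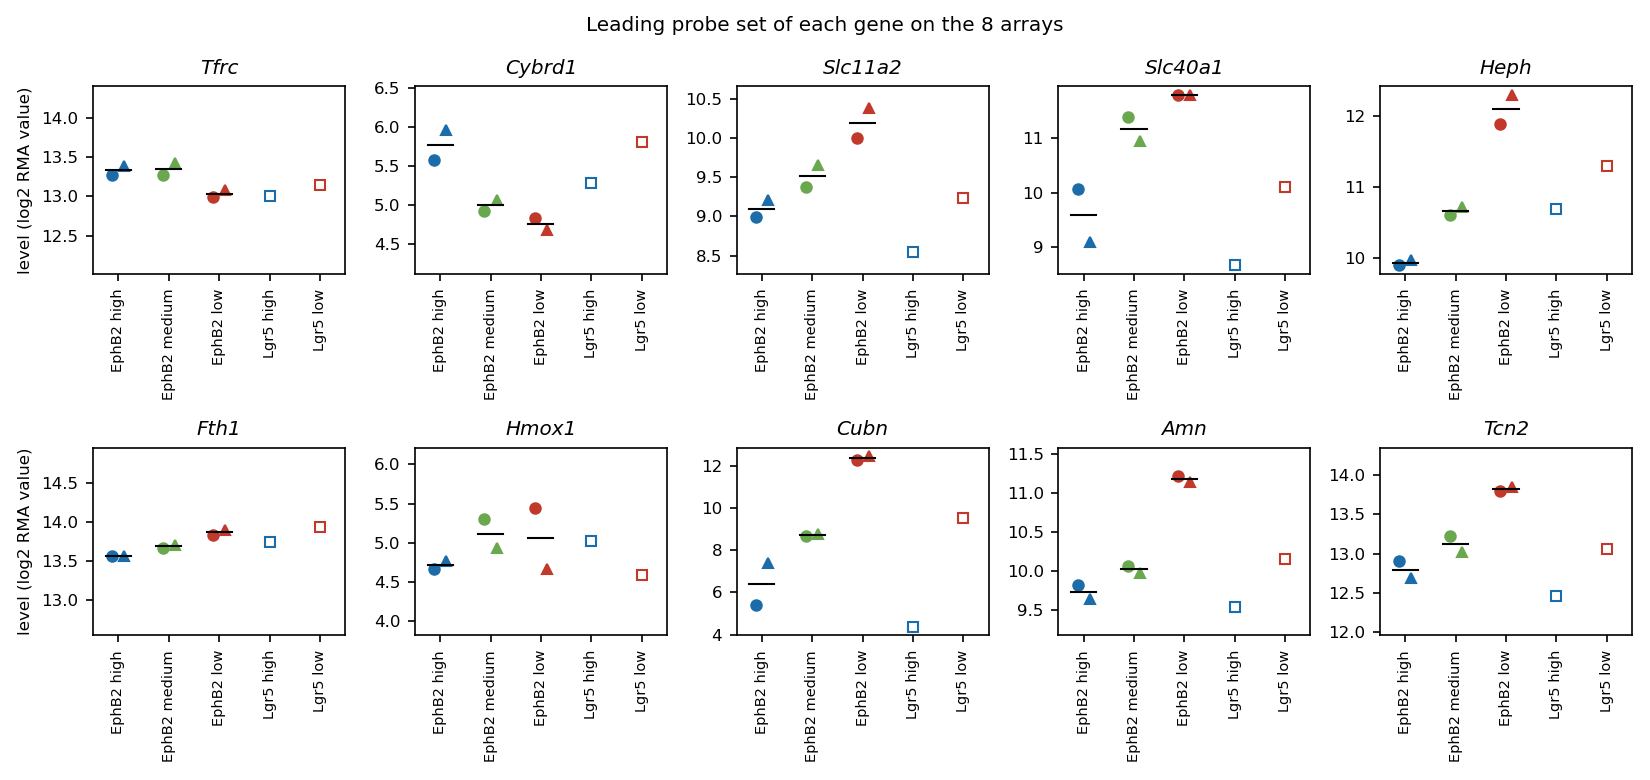
Level of each gene's leading probe set (log2 RMA value, vertical axis, 1 scale per gene) on the 8 arrays, with circles for the first and triangles for the second EphB2 hybridization, black bars for means of 2 arrays and open squares for the single Lgr5 arrays. Cubn spans 8.13 on the log2 scale over the 8 arrays and Tfrc 0.44, and both low arrays lie above all high and medium arrays for Slc11a2, Slc40a1, Heph, Fth1, Cubn, Amn and Tcn2.

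Tfrc encodes the transferrin receptor, through which most dividing cells take in iron. Its leading probe set stood at 13.28 and 13.39 in EphB2 high cells, 13.27 and 13.43 in medium cells, and 12.99 and 13.08 in low cells, with 13.01 and 13.14 on the Lgr5 high and low arrays. It was thus near the top of the scale in every sort, at percentile 98.9 of all probe sets, and the high and medium arrays lay just above the low ones. The difference between high and low was 0.30 ± 0.14 (adjusted p = 0.167) with a 95% interval from -0.03 to 0.63.

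A second Tfrc probe set, of lower signal, read 10.64 and 10.63 in high, 10.66 and 10.70 in medium and 10.15 and 9.95 in low cells. Here the receptor was higher in high than in low cells by 0.59 ± 0.13 (1.51-fold, adjusted p = 0.0235) and higher in medium than in low cells by 0.63 ± 0.13 (adjusted p = 0.0321), while high and medium differed by -0.04 ± 0.13. The call between high and low was lost without the first high array (adjusted p = 0.101), the second high array (0.11) or the second low array (0.0918). The third probe set ran from 8.21 on one low array to 9.59 on one high array with overlapping groups, and its difference of 0.67 ± 0.36 was not called (adjusted p = 0.237). It ran from 0.16 without the first low array to 1.18 without the second, where it was called (adjusted p = 0.0472). The 3 probe sets of Tfrc were all above 0 between high and low, but 1 of 3 was called.

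Cybrd1 encodes duodenal cytochrome b, the ferric reductase of the enterocyte surface. Its signal was weak, at percentile 39.6 of all probe sets, with 5.57 and 5.96 in EphB2 high cells, 4.92 and 5.07 in medium cells and 4.84 and 4.68 in low cells. Both high arrays lay above the others of this sort, and the reductase was higher in high than in low cells by 1.0 ± 0.18 (2.01-fold, adjusted p = 0.0104). That is opposite to the importer and the exporter described next. The call was lost without the second high array (adjusted p = 0.0571) or the second low array (0.0569). Its other probe set, at percentile 30.0, read 4.56 and 5.29 in high cells and 4.43 and 3.53 in low cells, and its difference of 0.94 ± 0.36 was not called (adjusted p = 0.113). It ran from 0.49 without the second low array to 1.39 without the first, where it was called (adjusted p = 0.0442). The Lgr5 arrays showed the leading probe set at 5.28 in high and 5.81 in low cells, a difference of -0.53 with the opposite sign.

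Slc11a2 encodes DMT1, which carries ferrous iron across the brush border and also out of endosomes after transferrin uptake. The leading probe set stood at 8.99 and 9.21 in EphB2 high, 9.37 and 9.65 in medium and 10 and 10.39 in low cells, a rise in each step towards low EphB2. Between high and low cells it differed by -1.10 ± 0.20 (2.14-fold, adjusted p = 0.0108). All 4 probe sets of Slc11a2 were lower in high cells, by -0.88 to -1.33, and each was called, with adjusted p between 0.00669 and 0.0108. The leading probe set's call was lost without the first high array (adjusted p = 0.0621), and those of the other 3 without the second high array (0.051, 0.0619 and 0.0548), one of them also without the first (0.051). Between medium and low cells the leading probe set differed by -0.69 ± 0.20 (adjusted p = 0.0705, and 0.0241 with the shared hybridization as a block). Of the other 3 probe sets, 2 also changed sides with the block in that step, from 0.0576 to 0.0424 and from 0.0481 to 0.0502.

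Slc40a1 encodes ferroportin, the iron exporter of the enterocyte's blood side. The leading probe set rose from 10.07 and 9.10 in EphB2 high cells over 11.38 and 10.95 in medium cells to 11.79 and 11.78 in low cells. The groups did not overlap, and the exporter was lower in high than in low cells by -2.20 ± 0.33 (4.60-fold, adjusted p = 0.00633). Its other probe set read 6.69 and 6.59 in high, 8.41 and 8.10 in medium and 8.83 and 9.15 in low cells, a difference of -2.36 ± 0.18 (5.12-fold, adjusted p = 0.00106). Most of this change lay between high and medium cells, by the values: -1.62 ± 0.18 against -0.74 ± 0.18 between medium and low. This was the single probe set of the 23 that was called between high and medium (adjusted p = 0.047), where 0.3% of all probe sets were called and 0.282% as lower. The arrays of high and medium cells did not overlap for 18 lower and 2 higher probe sets of the 23, where 18.4% of all probe sets lay lower and 23.9% higher without overlap. The call was lost with the hybridization as a block (adjusted p = 0.0701) and whichever array was left out (0.113 to 0.331), and its call between medium and low (adjusted p = 0.0447) was also lost with the block (0.0541).

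Heph encodes hephaestin, the ferroxidase that works beside ferroportin. Its 1 probe set stood at 9.90 and 9.98 in EphB2 high, 10.61 and 10.72 in medium and 11.89 and 12.30 in low cells. Hephaestin was lower in high than in low cells, by -2.15 ± 0.17 (4.45-fold, adjusted p = 0.00125), and lower in medium than in low cells, by -1.43 ± 0.17 (adjusted p = 0.00974). The step from high to medium was -0.73 ± 0.17 and was not called (adjusted p = 0.246). By the values, Heph changed more between medium and low, and ferroportin more between high and medium. The difference between the 2 steps was tested for each probe set, and limma called 0 of 45037, with 8.97% of all and 4 of the 23 at an unadjusted p below 0.05. It was 0.70 ± 0.30 for Heph (adjusted p = 0.57) and -0.88 ± 0.31 for the second Slc40a1 probe set (adjusted p = 0.541).

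Fth1 encodes the heavy chain of ferritin, which stores iron in nearly all cells. Its leading probe set read 13.57 and 13.56 in EphB2 high, 13.67 and 13.71 in medium and 13.83 and 13.90 in low cells. The values were at percentile 99.5 of all probe sets and the groups did not overlap, but the difference of -0.30 ± 0.12 was not called (adjusted p = 0.128). The other probe set, whose name marks probes that may match further transcripts, differed by -0.38 ± 0.13 (adjusted p = 0.0819). Both were called when the dimmer part of all probe sets was left out (adjusted p = 0.0493 and 0.0331) and when the spread was modelled along signal (0.003 and 0.00402). In these settings 11963 of 22519 and 13758 of 45037 probe sets were called.

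Hmox1 encodes haem oxygenase 1, which frees iron from haem. Its 1 probe set was weak, at percentile 37.2, with 4.66 and 4.77 in EphB2 high, 5.30 and 4.93 in medium and 5.44 and 4.67 in low cells. The low arrays lay far apart and overlapped both other groups, and the difference of -0.34 ± 0.28 was not called (adjusted p = 0.443). It was -0.78 in the first hybridization and 0.10 in the second.

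**Figure D2:**
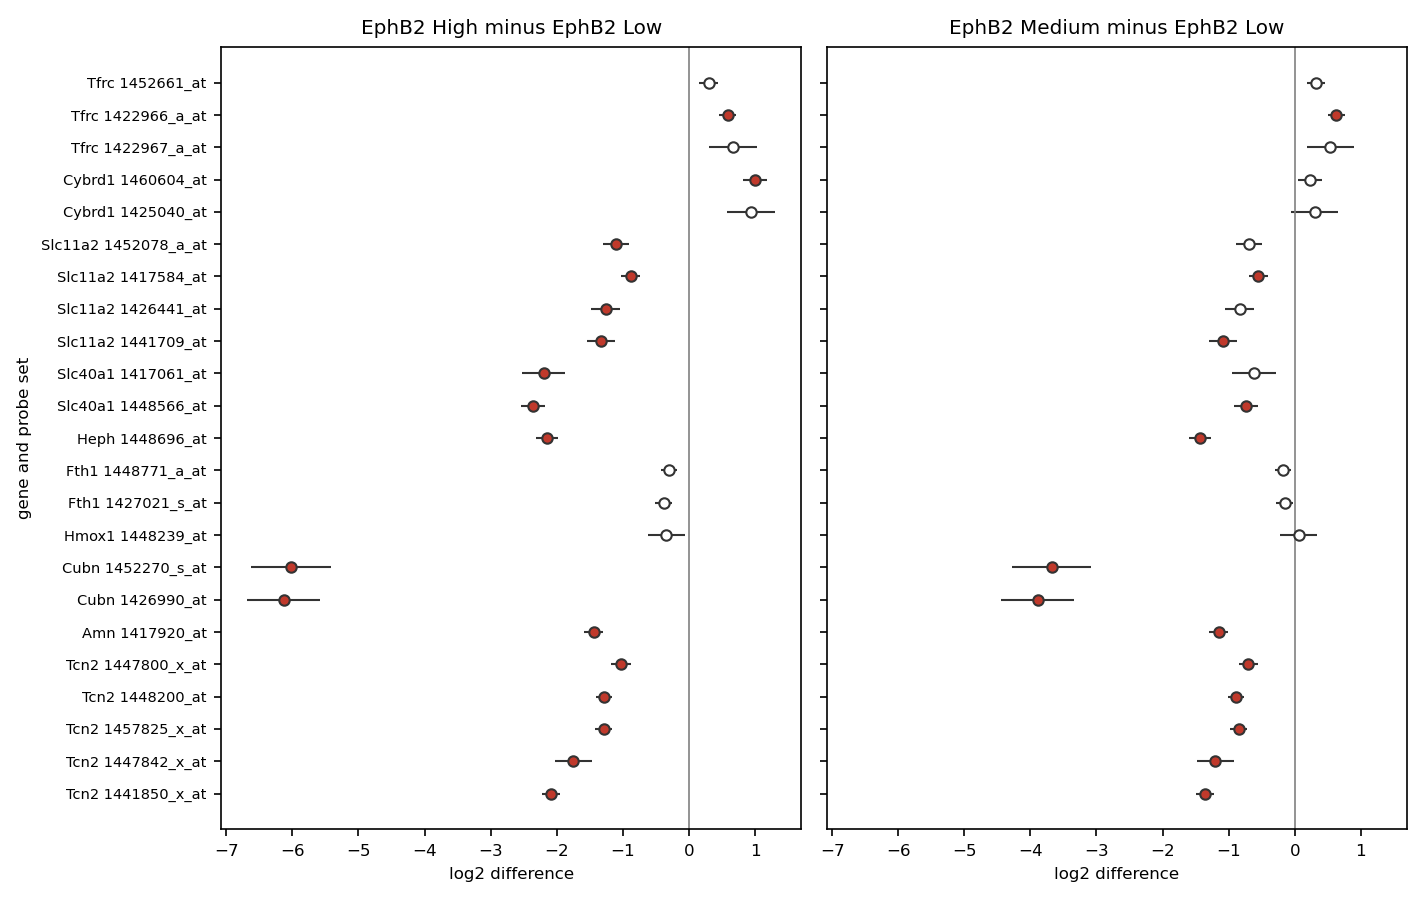
Log2 difference (horizontal axis) of each of the 23 probe sets between EphB2 high and low (left) and EphB2 medium and low (right), with bars for limma's standard error (n = 2 arrays per group) and filled points for an adjusted p below 0.05. The probe sets of Tfrc and Cybrd1 lie right of 0 and those of Slc11a2, Slc40a1, Heph, Cubn, Amn and Tcn2 left of 0 in both panels, with both Cubn probe sets beyond -6 on the left.

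Cubn encodes cubilin, the large peripheral protein that binds the complex of intrinsic factor and cobalamin. Its leading probe set read 5.39 and 7.38 in EphB2 high, 8.67 and 8.78 in medium and 12.31 and 12.49 in low cells. It had the widest range of the 10 genes, and the high arrays differed from each other far more than those of the other groups, with an SD of 1.41 against 0.08 and 0.13. Cubilin was lower in high than in low cells by -6.02 ± 0.60 (64.7-fold, adjusted p = 0.00211), or -6.92 in the first and -5.11 in the second hybridization. Without the first high array the difference was -5.02 and without the second -7.01, called in both cases. Whether cubilin lay above background on the high arrays was not tested, so its fold is that of the deposited signal. The other probe set, whose name carries no mark of probes that may match further transcripts, gave -6.13 ± 0.55 (70.1-fold, adjusted p = 0.00159).

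Along the axis, cubilin was lower in medium than in low cells by -3.68 ± 0.60 (12.8-fold, adjusted p = 0.0168). The step from high to medium, -2.34 ± 0.60, was not called (adjusted p = 0.273). The difference between the steps, 1.34 ± 1.03, was not called either (adjusted p = 0.751).

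Amn encodes amnionless, the small membrane protein that anchors cubilin and brings it to the cell surface. Its 1 probe set stood at 9.83 and 9.64 in EphB2 high, 10.07 and 9.98 in medium and 11.22 and 11.14 in low cells. High and medium arrays were close and both low arrays stood apart. Amnionless was lower by -1.44 ± 0.14 in high than in low cells (2.72-fold, adjusted p = 0.00185) and by -1.15 ± 0.14 in medium than in low cells (adjusted p = 0.0092), while high and medium differed by -0.29 ± 0.14 (adjusted p = 0.573). The difference between its steps was 0.87 ± 0.24 (adjusted p = 0.499).

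Tcn2 encodes transcobalamin, the plasma carrier that delivers cobalamin to tissues. Its leading probe set was near the top of the scale in every group, with 12.90 and 12.69 in EphB2 high, 13.23 and 13.02 in medium and 13.80 and 13.85 in low cells. The groups did not overlap, and transcobalamin was lower in high than in low cells by -1.03 ± 0.15 (2.05-fold, adjusted p = 0.00534). All 5 probe sets of Tcn2 were called in the same direction between high and low, from -1.03 to -2.09, and between medium and low, from -0.70 to -1.36. Names of 4 of the 5 mark probes that may match further transcripts. The remaining one read 11.91 and 11.87 in high, 12.28 and 12.29 in medium and 13.17 and 13.19 in low cells, a difference of -1.29 ± 0.12 (2.44-fold, adjusted p = 0.00178).

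Between EphB2 medium and low cells, 13 of the 23 probe sets were called, 1 higher and 12 lower, where 15.3% of all probe sets were called (8.54% higher, 6.78% lower). The median of the 23 was -0.70. Leading probe sets were called for Heph, Cubn, Amn and Tcn2, all lower, against 19.2% of all genes called and 7.78% as lower. With 1 array left out at a time, their differences ran from -1.64 to -1.22 for Heph and -3.77 to -3.59 for Cubn. They ran from -1.2 to -1.11 for Amn and -0.81 to -0.6 for Tcn2. No probe set of the 23 was called without the first medium array, and none without the second. Calls over all probe sets fell at the same time from 6900 to 908 and 531. Without the second low array 4 of the 23 were called, and without the first or second high array 8.

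In the Lgr5 sort, with 1 array per group and no test, 20 of the 23 probe sets were lower on the high array and the median difference was -0.60, against -0.05 over all probe sets. At least 2-fold differences were found for 5 of the 23, all lower, where 6.99% of all probe sets differed by that much and 4.68% were lower. They were both probe sets of Cubn, both of Slc40a1 and 1 of Slc11a2. Cubilin stood at 4.36 on the Lgr5 high and 9.54 on the Lgr5 low array, a difference of -5.18, and its second probe set differed by -4.50. Ferroportin stood at 8.67 and 10.11, a difference of -1.43. Markers of several cell types were at least 2-fold lower on the same array: 9 of 11 absorptive genes (median -2.56), 8 of 10 enteroendocrine (-1.98), 6 of 9 goblet (-1.72), 4 of 9 tuft (-0.85) and 2 of 15 macrophage genes (-0.08), while 0 of 9 Paneth cell genes were (-0.53). Their part in these differences was not tested.

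Smaller differences were seen for the other genes of dietary uptake. Slc11a2 differed by -0.69 between 8.54 on the high and 9.24 on the low array. Heph differed by -0.60 (10.69 and 11.29), Amn by -0.61 (9.54 and 10.16) and Tcn2 by -0.60 (12.46 and 13.06). Fth1 differed by -0.20 (13.74 and 13.94), Tfrc by -0.13 and Hmox1 by 0.43 (5.02 and 4.59). By leading probe sets, the Lgr5 low array held Cubn, Heph and Amn at levels between the EphB2 medium and low arrays. It held Slc11a2 and Slc40a1 below every EphB2 medium and low array, and Tcn2 between the EphB2 medium arrays (13.06 against 13.23 and 13.02). Levels were not tested across the sorts, which were hybridized separately.

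**Figure D3:**
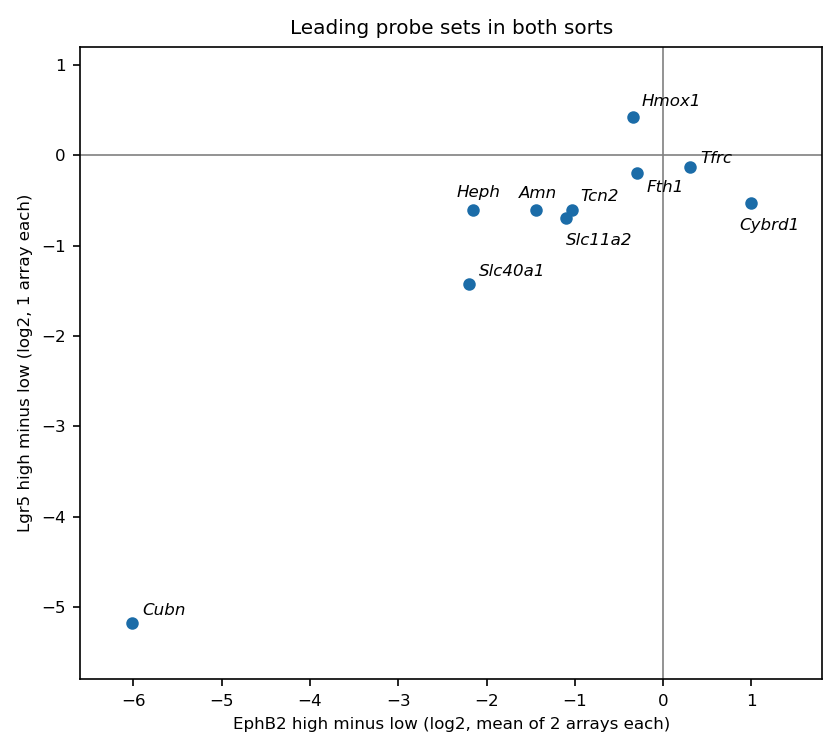
Log2 difference between EphB2 high and low (horizontal axis, means of 2 arrays each) and between Lgr5 high and low (vertical axis, 1 array each) for the leading probe set of each of the 10 genes. Slc11a2, Slc40a1, Heph, Fth1, Cubn, Amn and Tcn2 lie below 0 on both axes, Cubn furthest out at -6.02 and -5.18, while Tfrc, Cybrd1 and Hmox1 have opposite signs on the axes.

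Other genes of the same pathways were then counted, each by its brightest probe set, where 19.6% of all genes were called higher and 13.2% lower in EphB2 high than in EphB2 low cells. Of 16 further genes of iron and haem transport, 5 were higher, 6 lower and 5 not called. Lower in high cells were Slc46a1, a carrier of folate and haem of the enterocyte surface (-3.14 ± 0.14, adjusted p = 0.000376), the haem exporter Flvcr1 (-2.36 ± 0.20, adjusted p = 0.00139) and the efflux pump Abcg2 (-1.18 ± 0.14, adjusted p = 0.00303). Higher was Slc48a1, which moves haem out of lysosomes (1.30 ± 0.12, adjusted p = 0.0018). The list's median was 0.05. Without the first or the second high array 3 of its genes were higher.

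Of 19 genes of iron storage and sensing, 4 were lower and 15 not called, with 2 lower when either high array or the second low array was left out and 6 with the block. Egln3, an oxygen-sensing prolyl hydroxylase, read 5.51 and 6.07 in EphB2 high, 7.57 and 7.59 in medium and 10.69 and 11.31 in low cells, a difference of -5.22 ± 0.27 (adjusted p = 0.000502). Epas1, the hypoxia-inducible factor that drives iron uptake genes of the intestine, differed by -1.16 ± 0.19 (adjusted p = 0.0077), and Aco1, an iron-regulatory protein, by -0.76 ± 0.15 (adjusted p = 0.0143, lost without the first high, second high or second low array). Ncoa4, the ferritin autophagy receptor, differed by -0.59 ± 0.12 (adjusted p = 0.016, lost without any one of the high or low arrays). Of 12 genes of haem synthesis and breakdown, 2 were lower, Alas1 and Nfe2l2, and 10 not called, and with the hybridization as a block 2 were higher and 3 lower. Of 18 genes of iron-sulfur cluster assembly, 3 were higher (Lyrm4, Hscb and Mms19, by 0.54 to 0.72) and 15 not called. The calls of these last 2 lists were lost without the first high, the second high or the second low array. With the dimmer probe sets left out, 7 of the 18 iron-sulfur genes were higher, where 6811 of 22519 probe sets were higher.

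Enzymes of DNA synthesis and repair that carry iron, or that work in complexes with such subunits, went the other way from the absorptive genes. Of 12, 10 were higher in EphB2 high cells and 2 not called, with a median of 1.77. The helicase and nuclease Dna2 differed by 1.72 ± 0.15 (adjusted p = 0.0015), the large subunit of ribonucleotide reductase Rrm1 by 2.01 ± 0.24 (adjusted p = 0.00337), the polymerase subunit Pole by 2.65 ± 0.33 (adjusted p = 0.00354) and the helicase Rtel1 by 1.24 ± 0.16 (adjusted p = 0.00416). Rrm2, the iron-holding subunit of ribonucleotide reductase, named here after its value was seen, differed by 0.82 ± 0.24 and was not called (adjusted p = 0.0503). The other gene not called was Rrm2b, also named after its value was seen. It had the opposite sign, at -0.25 ± 0.12 (adjusted p = 0.203). All 11 proliferation genes were higher, with a median of 1.95, and 7 of them without the second high array. All 11 absorptive reference genes were lower, with a median of -2.71.

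The genes of transcobalamin and of its receptor differed in direction. Cd320, the receptor that takes transcobalamin into cells, read 10.71 and 10.63 in EphB2 high, 10.19 and 9.91 in medium and 9.05 and 8.46 in low cells. It was higher in high than in low cells by 1.91 ± 0.23 (adjusted p = 0.00317) and by 1.10 on the Lgr5 arrays, while its ligand's gene Tcn2 was lower. The list of cobalamin uptake and transport held 9 further genes, among them Pdzk1, a scaffold of brush border proteins. Of the 9, 2 were higher (Cd320 and the exporter Abcc1, 1.77 ± 0.23, adjusted p = 0.00402) and 3 lower. Pdzk1 was 1 of the 3 and differed by -3.96 ± 0.17 (adjusted p = 0.000375). The lysosomal cobalamin exporter Lmbrd1 differed by -0.69 ± 0.13 (adjusted p = 0.0112, lost without the second high or second low array), and without either of those arrays 1 gene of the list was still lower. Cblif, intrinsic factor itself, and Lrp2, which pairs with cubilin in the kidney, are named here after their values were seen. They lay at percentiles 25.3 and 15.6 of signal and were not called.

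Of 8 genes for enzymes that use or process cobalamin inside the cell, 4 were higher in EphB2 high cells and 4 not called. Methionine synthase, Mtr, read 7.15 and 7.41 in high and 6.11 and 6.20 in low cells, a difference of 1.13 ± 0.15 (adjusted p = 0.00466). Its reductase Mtrr differed by 1.18 ± 0.16 (adjusted p = 0.0047), the cobalamin processing enzyme Mmachc by 1.24 ± 0.15 (adjusted p = 0.00318) and Mmab, which makes the mitochondrial cofactor, by 0.95 ± 0.23 (adjusted p = 0.0295, lost when a high array, a medium array or the second low array was left out). Methionine synthase links cobalamin to the folate cycle, where 9 of 11 genes were higher and 1, the carrier Slc46a1, was lower. Among the higher ones, Mthfd2 differed by 1.81 ± 0.18 (adjusted p = 0.00225), Shmt1 by 1.49 ± 0.16 (adjusted p = 0.0024) and the plasma folate carrier Slc19a1 by 1.35 ± 0.15 (adjusted p = 0.00265).

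**Figure D4:**
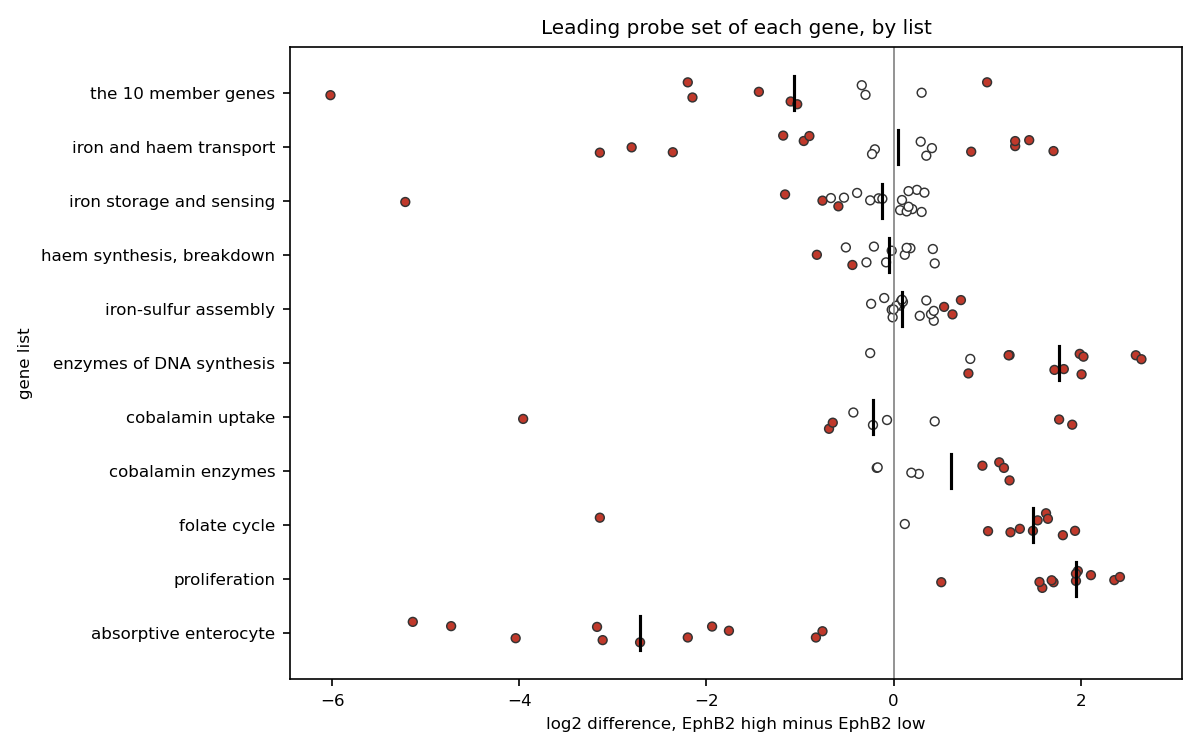
Log2 difference between EphB2 high and low (horizontal axis) for the leading probe set of each measured gene of 11 lists, with filled points for a limma adjusted p below 0.05 and a black bar at each list's median. Enzymes of DNA synthesis, the folate cycle and proliferation have medians of 1.77, 1.49 and 1.95, the 10 genes described here -1.06, and the absorptive enterocyte genes -2.71.

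Markers of other cells were read beside these genes. Absorptive genes moved with Slc11a2, Slc40a1, Heph, Cubn, Amn and Tcn2: their summed unlogged signal ran from 37200 to 37800 in EphB2 high, 74400 to 77400 in medium and 150000 to 158000 in low cells. Their part in the result was not tested. Paneth cell genes went the other way, with 8 of 9 higher in high cells and summed signals of 55300 to 61800 in high against 31200 to 33200 in low cells, with 3 called without the second high array and 5 without the first low array. Of 9 tuft cell genes 4 were higher and 1 lower, of 9 goblet cell genes 2 were higher and 3 lower, and of 10 enteroendocrine genes 1 was higher and 4 lower. Leaving out arrays brought these to 2 higher tuft genes (first high or second low array), to 1 lower goblet gene (either low array) and fewer (either high array), and to 2 lower enteroendocrine genes (second high or either low array). The part of these cells in the higher Cybrd1 signal was not tested.

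Macrophages use ferroportin and haem oxygenase heavily, and red cell precursors the transferrin receptor. Of 15 macrophage genes 12 lay below the median of all probe sets, among them the defining marker Adgre1 (named after its value was seen) at percentile 17.1. Above that median lay Lyz2 at percentile 79.9, Cd14 at 71.4 and Cd68 at 60.8, and these were the 3 called higher in EphB2 high cells, by 0.65, 1.98 and 1.44. The mannose receptor Mrc1 was lower, by -1.18 ± 0.20 (adjusted p = 0.00927, and 0.0536 without the second low array), in the same direction as Slc40a1, and the list's median was 0.03. The summed unlogged signal, to which the brightest genes add most, was 2530 to 2960 in EphB2 high cells, 2050 to 2110 in medium and 1510 to 1520 in low cells, and 3510 on the Lgr5 high against 6030 on the Lgr5 low array. Without the first high, second high or second low array, 1 macrophage gene, Cd14, was higher, and the Lyz2 call was also lost without the first low array. Of 10 erythroid genes 8 lay below the median, with Alas2 at percentile 13.1 and Gata1 at percentile 6.68, both named after their values were seen. Their summed signal was 666 to 680 in high, 625 to 679 in medium and 267 to 362 in low cells, lowest in low cells as were the 2 brighter Tfrc probe sets, and 2 genes were higher, Hemgn by 2.22 ± 0.35 (adjusted p = 0.00684) and Tspan33 by 1.10 ± 0.25 (adjusted p = 0.0251, lost without the first high or second low array). The part of such cells in the Tfrc and Slc40a1 results was not tested. Of 12 lymphocyte genes 11 lay below the median, with 1 higher and 3 lower (1 lower without either high array), and of 14 endothelial and stromal genes 12 did, with 1 higher and 13 not called.

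The genes whose levels ran most like each leading probe set over the 8 arrays were listed for those spanning at least 1 on the log2 scale. The 8 points share their arrays with every other gene, 9096 genes were considered (9097 for Cybrd1), and the correlations are a description. Cubn ran like Bst1 and Slc34a2 (Pearson r = 0.994 for both), Heph like Agmo (0.999) and Fgd4 (0.993), and Amn like Slc35c2 (0.998) and Plin3 (0.997). Tcn2 ran like Ccdc186 (0.999) and Dnm1 (0.997), Slc11a2 like Ptgr2 and Kif13b (0.996 for both), and Slc40a1 like Gm11545 (0.99) and the mitochondrial superoxide dismutase Sod2 (0.989). Such close companions were many, with 642 genes above 0.95 for Tcn2, 501 for Amn, 368 for Slc11a2, 321 for Cubn, 143 for Heph and 113 for Slc40a1. Cybrd1 had 1, the Notch ligand gene Dll1 (0.951), followed by Rabl6 (0.949).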

How the data were processed

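Expression was measured on 8 Affymetrix mouse arrays from sorted intestinal crypt cells. The deposited log2 values were made by the authors with RMA, per the submitters' processing notes. The version of RMA, and whether it ran on the 8 arrays together, remain not given in the sources used here. Because RMA makes the distributions of arrays nearly equal, cells that differ in their total RNA look alike. Precision is limited by the number of arrays.

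Probe sets were named through platform annotation, 34945 with 1 gene, 932 with several and 9160 with none, and 64 control probe sets were left out. limma 3.58.1 (R 4.3.3; 2-sided) was fitted to the 6 EphB2 arrays with group as the term and 3 residual degrees of freedom. P-values were adjusted over 45037 probe sets (Benjamini-Hochberg), with a call at an adjusted p below 0.05. Errors are limma's standard errors, and the fit was tested on simulated data. The Lgr5 arrays, 1 per group, got no test.

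Replicate numbers mark a shared hybridization in the labels and so pair the arrays. Deviations of same-numbered arrays correlated at 0.452, 0.131 and 0.212 between groups. The alternatives were the hybridization as a block, 1 probe set per gene, no dim probe sets, an intensity trend, quantile normalization again and each array left out. The test of the difference between steps was added after the values were seen.

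Named were the 10 genes, Lgr5, per list up to 4 genes with the smallest p between EphB2 high and low, and 2 genes of most similar pattern per leading probe set; others are marked in the text as named after their values were seen. The 10 genes, the 19 lists, the motifs and the rules were chosen with earlier results of these data known.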

Additional observations from a re-analysis of the deposited data

Results flagged for a closer look

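The array carries control probe sets for Tfrc along its transcript, which no comparison used. They differed between the sorts: averaged over the 2 Lgr5 arrays and the 6 EphB2 arrays, the probe set of the middle stood at 2.48 and 9.23, a difference of -6.75, that of the 3' end at 8.01 and 10.63, a difference of -2.62, and that of the 5' end at 9.25 and 7.63, a difference of 1.62. The middle ran from 8.33 to 9.53 over the EphB2 arrays. There the 3' end ran from 10.09 to 10.93 and the 5' end from 6.84 to 8.14. For each of these control probe sets, both EphB2 high arrays lay above both EphB2 low arrays, which was not tested. On the Lgr5 high and low arrays the middle stood at 2.64 and 2.32. The 3' end stood there at 8 and 8.02, and the 5' end at 9.39 and 9.11. The leading Tfrc probe set ran from 12.99 to 13.43 over all 8 arrays. A difference over 2 on the log2 scale between the sorts was found for 5 of 64 control probe sets (7.81%) and 81 of 45037 others (0.18%). The cause was not tested.

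Of the 5 probe sets of Cybrd1 and Tfrc, 3 had opposite signs in the sorts. The leading Cybrd1 probe set was higher on both EphB2 high arrays, by 0.73 and 1.28 within hybridizations, and lower on the Lgr5 high array, by -0.53. The leading Tfrc probe set differed by 0.29 and 0.31 within hybridizations and by -0.13 on the Lgr5 arrays, and the third Tfrc probe set by 0.99 and 0.36 and by -0.05. The second Tfrc probe set, the one called between EphB2 high and low, differed by 0.59 there and by 0.03 on the Lgr5 arrays, and the second Cybrd1 probe set by 0.94 and 0. These differences between the sorts were not tested.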

How the results depend on the processing

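With the shared hybridization as a block, 17 of the 23 probe sets were again called between EphB2 high and low, and no call changed there. Between medium and low the count stayed at 13, with 2 calls gained and 2 lost, all given with Slc11a2 and Slc40a1. Between high and medium it went from 1 to 0, with 81 of all probe sets called. There limma gave 11 of the 23 and 6157 of all 45037 an unadjusted p below 0.05. The block changed no other call of the 23. With 1 probe set per gene, 7, 5 and 0 of the 10 genes were called in these comparisons. Over all 18193 genes the calls were 6792, 4489 and 248, where fewer probe sets were tested. For the last comparison, limma gave 4 of the 10 and 2579 of all genes an unadjusted p below 0.05. Without the dimmer probe sets 299 of all were called between high and medium, and with an intensity trend 470, with 2 of the 23. Between high and low the trend called 20 of the 23, 3 higher and 17 lower, and 13758 of all, 7711 of them higher. Between medium and low it called 16 of the 23, 2 higher and 14 lower, and 8879 of all, 5030 of them higher. The cause of these changes was not tested. Leaving out 1 array gave 12 to 18 of the 23 between high and low (5898 to 10728 of all), 0 to 10 between medium and low (531 to 6240) and 0 between high and medium (0 of all, with 7 to 10 of the 23 at an unadjusted p below 0.05). A threshold of 0.58 in place of 1 counted 13 of the 23 in the Lgr5 sort. The share of all probe sets at 0.58 is not given, so this count cannot be set against it. Signs turned with 1 array left out for Hmox1 (high minus low, -0.73 to 0.05, medium minus low, -0.33 to 0.44), for the second Cybrd1 probe set (medium minus low, -0.15 to 0.76, difference of steps, -0.12 to 0.78) and for the leading Tfrc probe set (high minus medium, -0.09 to 0.06) and for the dimmest Tfrc probe set (high minus medium, -0.06 to 0.32, difference of steps, -0.93 to 0.10), none of which was called. Background correction was not varied, since processed values were analysed.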
